A study of Mus musculus with 10 samples.

Results

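Transcription factors that carry interferon and cytokine signals were followed in neutrophils from mouse squamous cell carcinomas. The set was 9 genes given by symbol, Stat2, Stat3, Irf1, Irf2, Irf5, Irf7, Irf8, Irf9 and Batf2, and all 9 were found by Ensembl identifier among the 55385 mouse genes of the count table. Sox2low control (parental) or Sox2Hi carcinoma cells were grafted on CatchupIVM-red mice, a reporter strain in which Tomato is tied to the neutrophil gene Ly6g. The library descriptions carry C57, with GFP for the control and Sox2 for the Sox2Hi graft. Mice with established tumours stayed untreated (naive) or received anti-PDL1 together with a CD40 agonist, and Tomato+ cells were isolated from the tumours for bulk RNA sequencing. Naive tumours gave 3 control and 3 Sox2Hi libraries, and treated tumours gave 2 of each. Doses, times, ages and whether each library came from its own mouse are not given in the sources used here, so the p-values measure only the spread between these libraries. The question of the study was whether neutrophils respond less to interferons where the tumour cells carry Sox2.

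STAT proteins are latent in the cytoplasm until kinases of the JAK family, bound to cytokine receptors, phosphorylate them. Type I interferon joins Stat2 and Irf9 with a further STAT in a complex that binds the interferon-stimulated response element (ISRE), and interferon gamma acts through STAT dimers at the gamma-activated site (GAS). IRF proteins bind ISRE-like sites. Several of them are themselves induced by interferon, which makes them both parts and readouts of the pathway. Stat3 mainly serves other cytokines such as IL-6, IL-10 and G-CSF, the growth factor of neutrophils.

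Total counts ran from 13815734 to 22986193 per library. Reads over 1464 olfactory and vomeronasal receptor genes, taken as silent in these cells, gave an expected background of 1.58% to 1.74% of counts in control treated libraries and of 3.63% to 8.37% in the other libraries. Levels below are CPM, reads scaled to a common library size, under an expressed-gene scaling, whose factors came from the 11274 genes averaging 5 CPM or more. An all-gene scaling, over 29648 genes, is given beside it, because its factors moved with the background. Against the expressed-gene scaling it shifted the median gene by 0.55 on the log2 scale for treatment in control tumours and by -0.27 in Sox2Hi tumours. The 10 neutrophil markers, all detected, summed to 2601 to 4070 CPM in control naive and 16440 to 22150 CPM in control treated libraries. In Sox2Hi tumours the same sum was 2093 to 3942 CPM in naive and 7937 to 8356 CPM in treated libraries. Neutrophil markers thus stood higher with treatment in both grafts, alongside the factors, and their part in the results below was not tested.

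Several of these genes are known to be induced through sites near their starts, so their start regions were read. RefSeq promoters (GRCm38.p6, 250 bases before to 50 after a start) were held for 8 of the 9 genes, in 11 windows. Both strands were searched for an ISRE core, GAAANNGAA, and for a GAS, TTCNNNGAA, which reads the same on both strands. A match was found in 4 genes, and their 100-base stretches are printed because STAT and IRF proteins are known to bind such letters. Capitals mark the matches, and all 4 genes lie on the + strand. Stat2 (chr10:128270248-128270347) has an ISRE core on the reverse strand, 221 to 213 bases before the start. Irf1 (chr11:53769884-53769983) has a GAS 90 to 82 bases before it. Irf2 (chr8:46739495-46739594) has an ISRE core 241 to 233 and a GAS 224 to 216 bases before it, without overlap. Irf8 (chr8:120736147-120736246) has GAS matches 171 to 163 and 153 to 145 bases before it. Over all 32851 promoter windows of that length, 8.56% held the ISRE core and 8.30% held the GAS. A match is a description of the letters and not a measured site.
Stat2: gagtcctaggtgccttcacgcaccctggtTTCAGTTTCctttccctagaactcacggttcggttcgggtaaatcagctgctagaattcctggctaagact
Irf1: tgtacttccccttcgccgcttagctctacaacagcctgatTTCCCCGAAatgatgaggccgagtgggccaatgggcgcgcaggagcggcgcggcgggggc
Irf2: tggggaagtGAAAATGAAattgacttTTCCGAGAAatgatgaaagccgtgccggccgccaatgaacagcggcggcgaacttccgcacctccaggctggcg
Irf8: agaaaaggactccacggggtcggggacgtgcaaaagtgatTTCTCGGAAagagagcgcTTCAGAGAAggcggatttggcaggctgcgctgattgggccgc

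The factors rose together with treatment. In control tumours 9 of 9 were called higher, where 24.1% of the 11274 genes were, and their median log2 fold change was 1.52 against -0.18 over all genes. In Sox2Hi tumours 8 of 9 were called higher, where 15.0% of genes were, with a median of 1.16 against 0.09 over all genes. Called means an adjusted p (Benjamini-Hochberg) under 0.05 in edgeR's quasi-likelihood test. These counts and those that follow include Batf2, which passed the filter through its treated libraries, so its rise is not independent of the filter. The 9 factors were also chosen with earlier results of these data known. For every one of the 9, each treated library lay above each naive library of the same graft, which held for 29.6% of genes in control tumours and for 37.0% in Sox2Hi tumours. Under the all-gene scaling 9 of 9 were called higher in control tumours (18.7% of genes) and 4 of 9 in Sox2Hi tumours (1.79% of genes), namely Irf1, Irf2, Irf7 and Batf2. Without replicate 2 of the Sox2Hi treated libraries, which leaves 1 library in that group, only Batf2 was called there. The folds of Irf1 (1.49), Irf2 (1.43), Irf7 (1.30) and Irf9 (0.74) stayed about as large while their adjusted p rose to between 0.0552 and 0.16, whereas Stat2 went to 0.87, Irf5 to 0.40 and Irf8 to 0.36. In bulk libraries fewer cells of a type and less RNA per cell cannot be told apart.

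**Figure D1:**
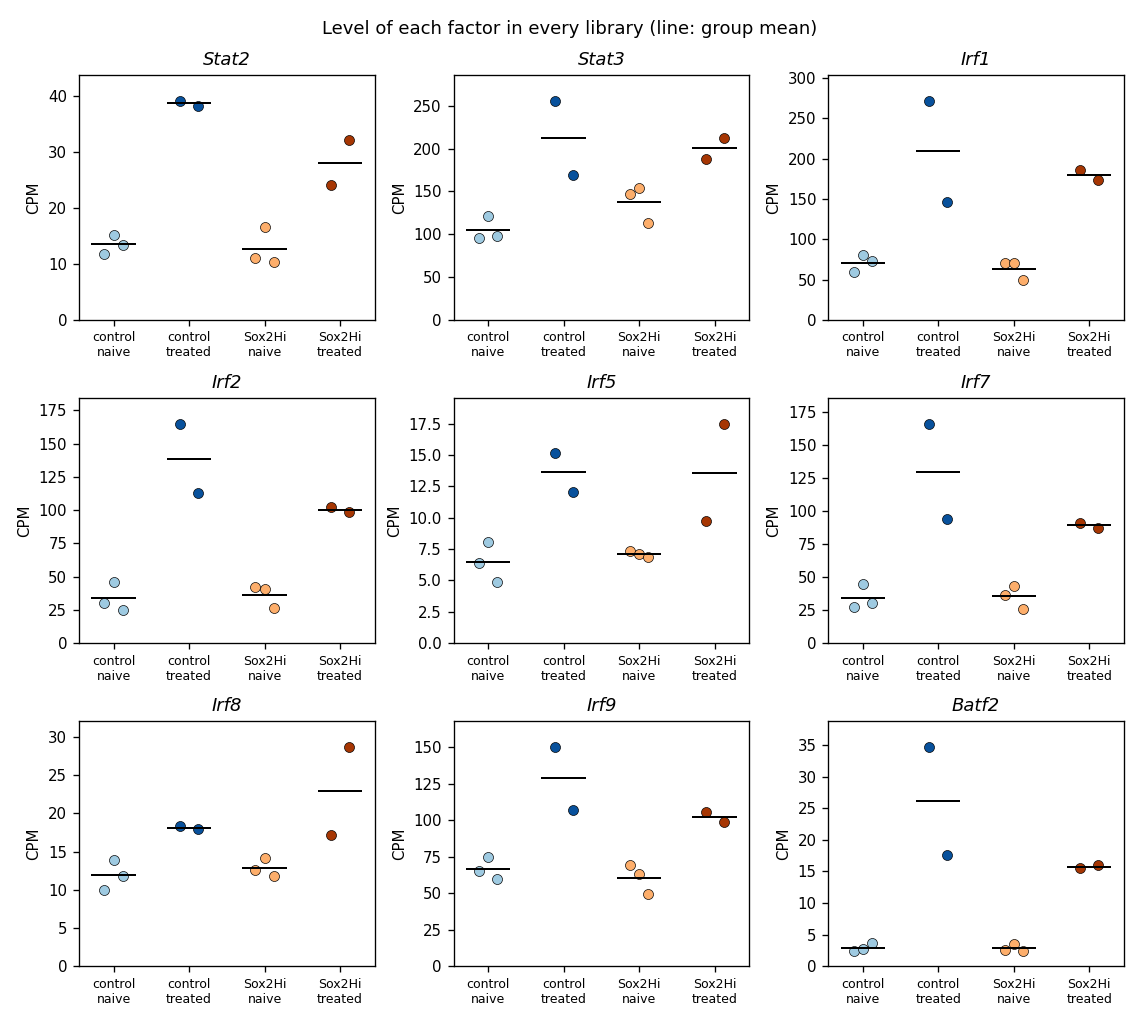
Level of each of the 9 factors in CPM (linear axis from 0, one panel per gene) in the 10 libraries, with points for libraries and lines for group means (n = 3 in naive and n = 2 in treated groups). In all 9 panels the treated points lie above the naive points of the same graft, and the naive points of the grafts overlap.

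Stat2 and Irf9 form the DNA-binding complex of type I interferon. Stat2 (chr10:128270559-128292849, with this and the following gene positions from GENCODE M21 on GRCm38) stood at 11.9, 15.3 and 13.3 CPM in control naive and at 39.2 and 38.4 CPM in control treated libraries. Sox2Hi tumours had 11.1, 16.5 and 10.3 CPM when naive and at 24.1 and 32.2 CPM when treated. Both treated groups were clear of the naive libraries, and the Sox2Hi treated pair lay below the control treated pair. The log2 fold change was 1.52 (SE 0.22, adjusted p = 0.000432) in control and 1.16 (SE 0.22, adjusted p = 0.00756) in Sox2Hi tumours. Irf9 (chr14:55603571-55610030) is the part of the complex that reads the ISRE. Its level per kb of annotated exon was near that of Stat3, a comparison that depends on the exon lengths used. Its level was 65.5, 74.7 and 59.4 CPM in control naive and 150 and 107 CPM in control treated libraries. It was 69.2, 63.0 and 49.6 CPM in Sox2Hi naive and 105 and 99.0 CPM in Sox2Hi treated libraries. Irf9 rose by a smaller step than Stat2, with log2 fold changes of 0.95 (SE 0.19, adjusted p = 0.002) and 0.75 (SE 0.19, adjusted p = 0.022). The Sox2Hi call of Irf9 was lost without treated replicate 1 (0.71), treated replicate 2 (0.74) or naive replicate 3 (0.63, adjusted p = 0.0877), at folds near the full one. At smaller folds it was lost with the all-gene scaling (0.49, adjusted p = 0.134), library totals (0.42, adjusted p = 0.127) and all genes with a count (0.39, adjusted p = 0.463). Irf9 shares 2.28% of its exon bases with Rnf31 on the same strand, and such reads cannot be assigned to one of them by position.

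Irf7 is the factor through which cells amplify type I interferon production, and it is a classical interferon-induced gene. Irf7 (chr7:141262706-141266481) had 27.3, 44.6 and 30.7 CPM in control naive and 166 and 93.9 CPM in control treated libraries. In Sox2Hi tumours it had 36.6, 43.5 and 26.2 CPM when naive and 91.1 and 87.4 CPM when treated. The treated libraries were all at least 2.01 times the highest naive library of their graft. Control treated replicate 1 was the highest of the 10 libraries. The log2 fold change was 1.92 (SE 0.29, adjusted p = 0.000485) in control and 1.33 (SE 0.28, adjusted p = 0.0118) in Sox2Hi tumours. Per kb of exon it moved from the fourth rank among the 9 in both naive groups to the second in both treated groups.

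Irf1 and Irf2 are related proteins that bind the same sites, Irf1 as an activator and Irf2 largely as its antagonist. Irf1 (chr11:53770014-53778374) had 59.4, 80.8 and 72.5 CPM in control naive and 272 and 146 CPM in control treated libraries. Naive Sox2Hi tumours had 70.2, 70.4 and 49.5 CPM and treated ones 186 and 173 CPM. Both Sox2Hi treated libraries fell between the control treated libraries. Irf1 rose by 1.56 (SE 0.25, adjusted p = 0.000715) and 1.50 (SE 0.25, adjusted p = 0.00448) on the log2 scale, and per kb of annotated exon it ranked first of the 9 in each group. Irf2 (chr8:46739732-46847458) had 30.2, 45.9 and 24.9 CPM in control naive and 165 and 113 CPM in control treated libraries. It had 42.0, 40.9 and 26.4 CPM in Sox2Hi naive and 102 and 98.3 CPM in Sox2Hi treated libraries. The antagonist rose with the activator. Its log2 fold change was 2.04 (SE 0.28, adjusted p = 0.00033) in control and 1.46 (SE 0.28, adjusted p = 0.00739) in Sox2Hi tumours. By size of rise among 11274 genes Irf2 ranked 217 and Irf1 522 in control tumours, and Irf1 ranked 225 and Irf2 242 in Sox2Hi tumours. Irf1 shares 3.40% of its exon bases with Gm17334 on the opposite strand, and whether counting used strand is not given in the sources used here.

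Batf2, a factor of the BATF family that partners Irf1 in activated macrophages, showed the largest fold of the 9 in both grafts. Batf2 (chr19:6140983-6172476) had 2.36, 2.80 and 3.65 CPM in control naive and 34.6 and 17.6 CPM in control treated libraries. The Sox2Hi levels were 2.61, 3.58 and 2.48 CPM when naive and 15.6 and 16.0 CPM when treated. The lowest treated library was 4.84 times the highest naive library in control and 4.34 times in Sox2Hi tumours. The log2 fold change was 3.14 (SE 0.30, adjusted p = 7.03e-05) in control tumours. For Sox2Hi tumours it was 2.45 (SE 0.30, adjusted p = 0.000871). With a mean under 5 CPM in each naive group, Batf2 passed the filter on low values through its treated libraries. The naive levels rest on 39 to 67 reads per library, and the expected background ran from 1.32% to 55.8% of its reads over the 10 libraries. After subtraction of that background, an alternative chosen after seeing the data, the log2 fold changes were 3.78 and 2.70. Batf2 shares 2.02% of its exon bases with Arl2 on the opposite strand.

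Irf5 and Irf8 are factors of the myeloid lineage. Irf5, which acts below Toll-like receptors, was low, and Irf5 (chr6:29526625-29541871) had 6.42, 8.05 and 4.84 CPM in control naive and 15.2 and 12.1 CPM in control treated libraries. In Sox2Hi tumours it had 7.38, 7.11 and 6.83 CPM when naive and 9.75 and 17.5 CPM when treated. It rose by 1.08 (SE 0.27, adjusted p = 0.00625) and 0.94 (SE 0.27, adjusted p = 0.0336) on the log2 scale. In Sox2Hi tumours the value fell to 0.40 without treated replicate 2 (adjusted p = 0.425), while it stayed at 0.90 to 0.96 without any 1 of the Sox2Hi naive libraries (adjusted p 0.0617 to 0.107) and at 0.94 without control naive replicate 1 (adjusted p = 0.0537), where the call was lost too. It was also lost with the replicate block by title number (0.80, adjusted p = 0.0705) and with RLE factors (0.84, adjusted p = 0.0612). Smaller folds that were not called came with the all-gene scaling (0.67, adjusted p = 0.138), library totals (0.56, adjusted p = 0.11) and all genes with a count (0.57, adjusted p = 0.301). Expected background was 19.4% to 22.3% of Irf5 reads in control naive and 3.48% to 3.98% in control treated libraries. With it subtracted the log2 fold changes were 1.27 in control and 0.95 (adjusted p = 0.0531) in Sox2Hi tumours. Irf5 shares 14.1% of its exon bases with Tnpo3 on the opposite strand, and reads from the pair cannot be told apart without strand. Irf8, which directs progenitors to monocytes and dendritic cells and away from granulocytes, had the smallest rise in control tumours. Irf8 (chr8:120736358-120756694) had 9.99, 13.9 and 11.8 CPM in control naive and 18.4 and 17.9 CPM in control treated libraries. Its Sox2Hi levels were 12.6, 14.2 and 11.8 CPM when naive and 17.2 and 28.7 CPM when treated. Sox2Hi treated replicate 2 was the highest of the 10 libraries for both genes. Irf8 rose by 0.61 (SE 0.23, adjusted p = 0.0394) in control and 0.83 (SE 0.23, adjusted p = 0.0267) in Sox2Hi tumours. The control call was lost in 6 of the 10 fits that left out 1 library (control naive 1 or 3, control treated 1 or 2, Sox2Hi naive 1 or 3), with values of 0.49 to 0.79 and adjusted p of 0.0509 to 0.134. It was also lost with the replicate block by description number (0.50, adjusted p = 0.0707) and in the fit on the compared groups alone (0.60, adjusted p = 0.0563). The Sox2Hi value fell to 0.36 without treated replicate 2 (adjusted p = 0.386), and with library totals as the scaling the control value was 0.059. Without Sox2Hi naive replicate 1 or 3 the Sox2Hi call of Irf8 was also lost, at 0.82 and 0.77, as it was with RLE factors (0.73, adjusted p = 0.0514) and with library totals (0.46, adjusted p = 0.12). For Irf8 the expected background was 21.4% to 31.4% of reads in control naive and 6.52% to 6.98% in control treated libraries. It was 9.27% to 15.9% in Sox2Hi libraries. With background subtracted the log2 fold changes of Irf8 were 0.87 in control and 0.85 in Sox2Hi tumours.

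Since Irf5 and Irf8 are strong in macrophages and dendritic cells, markers of those cells belong beside their values. The 8 macrophage markers, all detected, summed to 825 to 1254 CPM in control naive, then 1123 to 1707 CPM once treated, with 1185 to 1696 CPM in Sox2Hi naive and 951 to 1827 CPM in Sox2Hi treated libraries. With treatment in control tumours 6 of the 8 had higher means, among them Cd68 (223 to 675 CPM), C1qb (93.2 to 138 CPM) and Csf1r (16.0 to 31.1 CPM), and Apoe (559 to 392 CPM) and Mrc1 (36.3 to 27.1 CPM) had lower ones. In Sox2Hi tumours Cd68 (221 to 357 CPM), Csf1r (18.9 to 34.0 CPM), C1qb and C1qc had higher means. Apoe (845 to 691 CPM), Adgre1 (59 to 38 CPM), Mrc1 and C1qa had lower ones there. The 7 conventional dendritic cell markers, mostly the MHC class II gene H2-Ab1, gave 1582 to 2229, 3404 to 3495, 1395 to 2078 and 1847 to 4804 CPM in the same order. H2-Ab1 carried that rise (mean 1769 to 3425 CPM in control tumours), while Cd209a went from 16.7 to 0.936 CPM in control and from 13.3 to 1.88 CPM in Sox2Hi tumours, and Flt3 (3.07 to 1.37 CPM) was lower in control treated libraries, as was Zbtb46. Xcr1 (7.04 to 10.7 CPM), Clec9a (2.24 to 2.76 CPM) and Ccr7 (5.05 to 6.08 CPM) had higher means in control treated libraries. In Sox2Hi tumours H2-Ab1, Flt3 (2.2 to 3.2 CPM), Zbtb46 (2.51 to 3.53 CPM) and Xcr1 had higher means with treatment. Ccr7 (14.9 to 5.84 CPM) and Clec9a had lower ones there. The plasmacytoid list of 5, with 1 gene under a mean of 1 CPM, gave 102 to 124, 139 to 150, 89.0 to 119 and 121 to 131 CPM. Its higher sum in control treated libraries was that of Bst2, an interferon-induced gene (mean 55.7 to 113 CPM), while the other 4 had lower means there, Siglech 4.76 to 2.40 CPM and Tcf4 34.1 to 19.9 CPM among them. T and NK cell markers (7, with 1 under 1 CPM) gave 40.1 to 64.7, 98.1 to 342, 27.5 to 73.7 and 126 to 199 CPM. B and plasma cell markers (5) gave 61.1 to 121, 35.3 to 121, 148 to 686 and 24.2 to 117 CPM. Keratinocyte markers (6) gave 469 to 1530, 363 to 775, 632 to 769 and 480 to 699 CPM, and fibroblast and endothelial markers (6) gave 205 to 639, 63.3 to 81.2, 331 to 530 and 88.4 to 191 CPM. No marker was at 0 in all libraries, and the part of other cell types in the levels of the 9 factors was not tested.

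Stat3 (chr11:100885098-100939540) was abundant before treatment and moved least in Sox2Hi tumours. It stood at 95.6, 122 and 98.0 CPM in control naive and at 256 and 169 CPM in control treated libraries. Among Sox2Hi tumours it stood at 148, 154 and 113 CPM when naive and at 188 and 212 CPM when treated. The log2 fold change was 1.02 (SE 0.21, adjusted p = 0.00204) in control tumours. With library totals as the scaling the control calls of Stat3 (0.47, adjusted p = 0.0567), Irf9 (0.40, adjusted p = 0.091) and Irf5 (0.54, adjusted p = 0.0752) were lost. In Sox2Hi tumours it was 0.54 (SE 0.21, adjusted p = 0.0813), the value of the 9 that was not called, although both treated libraries were above the 3 naive ones. With the replicate block by description number Stat3 was called there at 0.67 (SE 0.16, adjusted p = 0.023). Deviations of treated and naive libraries that share that number correlated at -0.315 to -0.039.

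**Figure D2:**
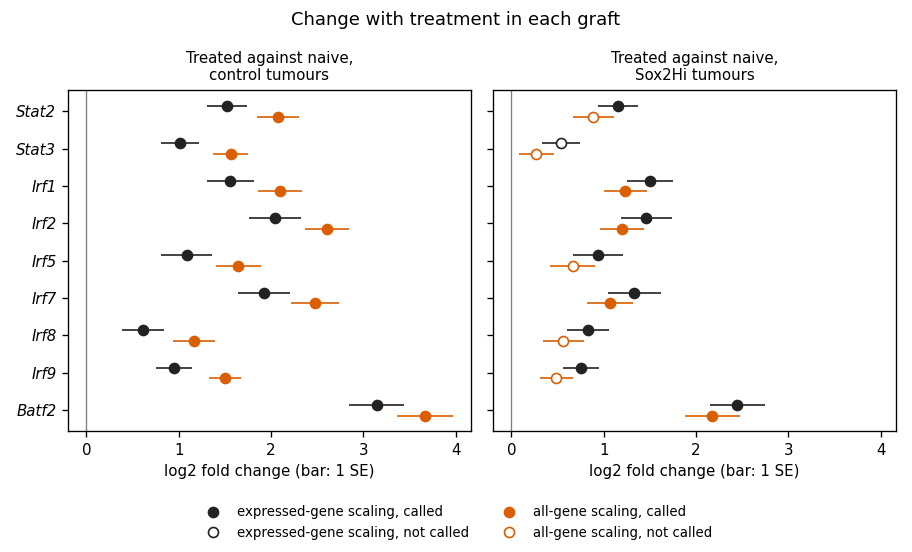
Log2 fold change of treated against naive (x axis, bars 1 SE) for the 9 factors in control (left) and Sox2Hi tumours (right) under the expressed-gene scaling (black) and the all-gene scaling (orange), with filled points called at an adjusted p under 0.05. All points lie above 0, and the all-gene points lie to the right of the black ones in control and to the left in Sox2Hi tumours.

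A ratio of 2 genes within a library does not depend on how libraries are scaled. Of 3 such ratios of reads per kb, Stat2 to Stat3 rose with treatment by 0.58 on the log2 scale, averaged over the grafts (exact two-sided permutation test within grafts, p = 0.01, the smallest it can give, adjusted p = 0.03). The rise was 0.53 in control and 0.62 in Sox2Hi tumours, and the treated libraries exceeded all naive libraries of their graft. So Stat2, of the type I interferon complex, gained on Stat3. Irf7 to Irf5 changed by 0.64 (exact permutation p = 0.04, adjusted p = 0.06), with 0.80 in control and 0.49 in Sox2Hi tumours, and did not pass. It passed without Sox2Hi naive replicate 2 (0.72, exact permutation, adjusted p = 0.025) and without Sox2Hi treated replicate 2 (0.87, exact permutation, adjusted p = 0.0375). Stat2 to Stat3 kept its sign but missed the threshold in 8 of the 10 fits that left out 1 library (exact permutation, adjusted p of 0.05 to 0.1), which allow fewer arrangements. Irf1 to Irf2, activator to antagonist, changed by -0.27 (exact permutation p = 0.2, adjusted p = 0.2). In control tumours that ratio was 2.01 ± 0.38 (SD, n = 3) when naive and 1.45 ± 0.24 (n = 2) when treated. Sox2Hi tumours had 1.71 ± 0.087 (n = 3) and 1.74 ± 0.034 (n = 2).

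**Figure D3:**
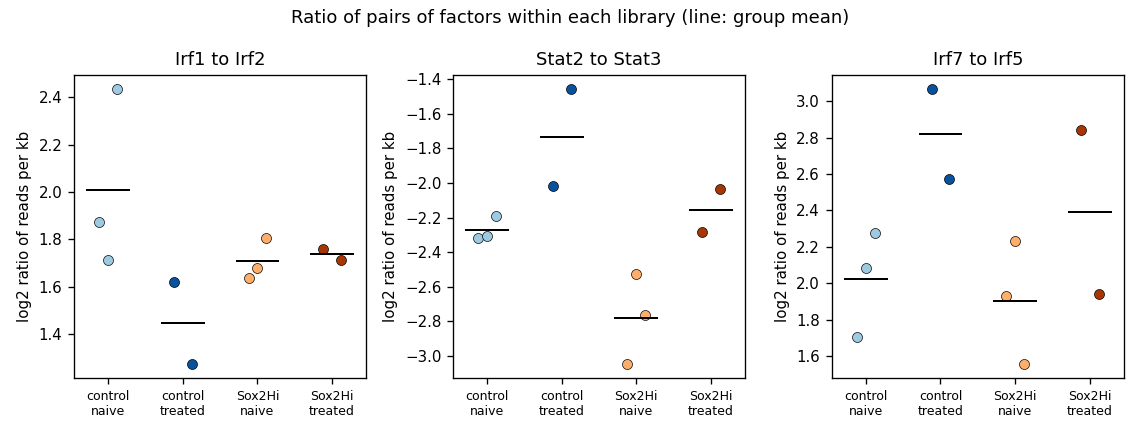
Log2 ratio of reads per kb of exon (y axis) for 3 pairs of factors within each of the 10 libraries, with points for libraries and lines for group means. The Stat2 to Stat3 ratio lies higher in the treated than in the naive libraries of both grafts, by 0.53 in control and 0.62 in Sox2Hi tumours.

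Between the grafts in naive tumours, calls came for Stat3 alone and only under some fits. In edgeR 0 of the 9 were called between Sox2Hi and control naive libraries, where 14.0% of genes were called in either direction, and 0 had groups without overlap, where 32.5% of genes did. At an unadjusted p under 0.05 the count was also 0, DESeq2 called 0 and limma-voom called 1, Stat3. The median log2 difference was 0.051 against -0.047 over all genes. Values ran from -0.16 (SE 0.23) for Irf1 to 0.39 (SE 0.19, adjusted p = 0.209) for Stat3. Stat3 alone was called higher in Sox2Hi under the all-gene scaling, at 0.77 (SE 0.17, adjusted p = 0.0489), where 1.66% of genes were called higher. It was also called when the replicate numbers were used as a block over the naive libraries, at 0.45 (adjusted p = 0.0337), and was higher in Sox2Hi in 3 of 3 naive pairs of the same number. Whether these numbers mark true pairs is not known. By limma-voom it stood at 0.55 (adjusted p = 0.00528) and with all genes with a count at 0.87 (adjusted p = 0.0431). All-gene scaling shifted the median gene by 0.37 in this comparison, and 4 factors that were negative (Stat2, Irf1, Irf9 and Batf2) were then positive.

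The comparison of treated tumours bears most directly on the study's question, and its calls turned on the scaling. Under the expressed-gene scaling 0 of 9 were called between Sox2Hi and control treated libraries, where 20.9% of genes were called in either direction. At an unadjusted p under 0.05 the count was 1, Batf2, which DESeq2 also called, and limma-voom called 0. The median was -0.33 against 0.04 over all genes, and 8 of 9 values were negative. The exception was Irf8 at 0.34 (SE 0.25, adjusted p = 0.364), while Irf5 stood at -0.0024 (SE 0.30). Batf2 had the lowest value, -0.73 (SE 0.31, adjusted p = 0.121), followed by Irf7 at -0.54 (SE 0.31), Irf2 at -0.47 (SE 0.31) and Stat2 at -0.46 (SE 0.24). For 5 factors, Stat2, Irf2, Irf7, Irf9 and Batf2, both Sox2Hi treated libraries lay below both control treated libraries, as did 26.3% of all genes. Under the all-gene scaling the same 5 were called lower, where 9.57% of genes were, at -0.91 for Stat2 (adjusted p = 0.0343), -0.91 for Irf2 (0.0419), -0.97 for Irf7 (0.0428), -0.77 for Irf9 (0.0267) and -1.16 for Batf2 (0.0332). That scaling moved the median gene by -0.45. Over all genes tested, 15.0% were higher and 5.87% lower with expressed-gene factors (11274 genes), against 4.18% and 9.57% under the all-gene scaling (29648 genes), where both the factors and the genes tested differ. Without control treated replicate 2, Batf2 was called lower under the expressed-gene scaling too, at -1.27 (adjusted p = 0.047).

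The difference between the grafts in their response to treatment was tested as an interaction, which shares its libraries with the comparisons above. Under the expressed-gene scaling 0 of 9 were called, where 19.8% of genes were called in either direction, with a median of -0.37 against 0.024 over all genes. At an unadjusted p under 0.05 the count was 0 in edgeR, and DESeq2 and limma-voom called 0. Values ran from -0.70 (SE 0.43, adjusted p = 0.293) for Batf2 to 0.22 (SE 0.32) for Irf8, and Irf1 was at -0.057 (SE 0.36). Under the all-gene scaling 6 of 9 were called lower, where 16.2% of genes were. They were Stat2 at -1.19, Stat3 at -1.29, Irf2 at -1.41, Irf7 at -1.41, Irf9 at -1.01 and Batf2 at -1.49, beside a shift of the median gene of -0.82. Without control treated replicate 2, Stat3 (-0.97, adjusted p = 0.0443) and Batf2 (-1.33, adjusted p = 0.0304) were called under the expressed-gene scaling.

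**Figure D4:**
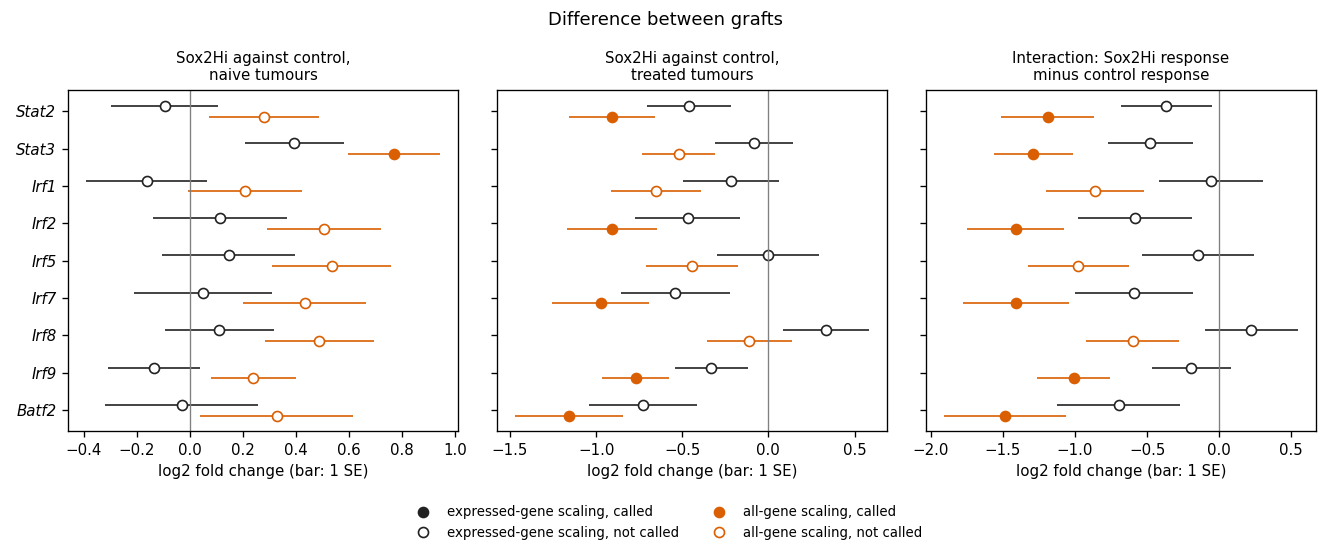
Log2 difference (x axis, bars 1 SE) of the 9 factors between Sox2Hi and control in naive tumours (left), in treated tumours (middle) and in the response to treatment (right), under the expressed-gene scaling (black) and the all-gene scaling (orange), with filled points called at an adjusted p under 0.05. No black point is filled, while the orange ones are filled for 1, 5 and 6 factors.

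Genes around the factors were taken from 8 lists, counted under the expressed-gene scaling, where 24.1% of all genes were called higher in control and 15.0% in Sox2Hi tumours. Counts under the all-gene scaling, where those shares were 18.7% and 1.79%, follow each. Of the 12 receptors and kinases above the STATs, 9 rose and 1 fell in control tumours and 2 rose in Sox2Hi tumours (medians 0.88 and 0.44), with 10 and 0 of 12 higher under the all-gene scaling. Among them Csf3r, the G-CSF receptor, rose by 1.39 in control tumours and stood at 0.52 (adjusted p = 0.174) in Sox2Hi tumours. Ifnar2, a chain of the type I interferon receptor, rose by 1.25 and 0.76. Ifngr1, of the interferon gamma receptor, rose by 1.18 in control tumours and stood at 0.65 (adjusted p = 0.083) in Sox2Hi tumours. Of 10 ligands 4 were high enough to test, and Il10 alone rose, by 0.94 in control tumours, with 5 and 1 of 7 higher under the all-gene scaling. The interferon gamma gene Ifng was too low to test, at 0.582 ± 0.41 CPM (SD, n = 3) when naive and 7.41 ± 8.13 (n = 2) when treated in control tumours. The Sox2Hi values were 0.471 ± 0.22 (n = 3) and 4.79 ± 0.70 CPM (n = 2). Ifnb1, a type I interferon, had group means of 0.0298 to 0.215 CPM.

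Of the negative regulators 6 of 9 tested were called higher in control and 3 of 9 in Sox2Hi tumours (medians 0.95 and 0.48), and 8 and 1 of 11 under the all-gene scaling. Usp18, which blocks the type I receptor, rose by 1.51 and 1.14. The phosphatases Ptpn6 and Ptpn2 rose by 1.47 and 1.04 in control tumours and stood at 0.76 (adjusted p = 0.0896) and 0.48 (adjusted p = 0.0738) in Sox2Hi tumours. Ptpn2 was lower in Sox2Hi than in control treated tumours, by -0.62 (adjusted p = 0.0479). Of 13 tested genes of the sensing arm above Irf5 and Irf7, which holds sensors, adaptors and kinases, 11 rose in control and 6 in Sox2Hi tumours. Under the all-gene scaling 12 and 4 of 16 did. They include the RNA sensor Ifih1, at 1.55 and 1.26, and the kinase Tbk1, at 1.40 and 0.75. Unc93b1, which carries Toll-like receptors to endosomes, rose by 1.51 in control tumours and stood at 0.68 (adjusted p = 0.215) in Sox2Hi tumours. Of the other STAT, IRF and BATF family genes 3 of 9 tested were called higher in control tumours and 2 of 9 in Sox2Hi tumours (median 0.25 in both), and 7 and 1 of 12 under the all-gene scaling. Batf rose by 1.24 and 1.14 and Stat6 by 0.91 and 0.67. Irf2bpl rose by 1.82 in control tumours and stood at 0.23 (adjusted p = 0.503) in Sox2Hi tumours, an interaction of -1.59 (adjusted p = 0.00729).

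Known targets of the factors were counted in the same way. Of 19 tested ISRE-type targets 17 rose in each graft, with medians of 1.56 in control and 1.47 in Sox2Hi tumours. With the all-gene scaling 18 of 20 rose in control and 12 of 20 in Sox2Hi tumours (medians 2.03 and 1.21). Ifit2, an antiviral gene, rose by 2.71 and 2.43, Oasl1 by 2.61 and 1.97, and Rtp4 by 2.38 and 2.11. Between the grafts, 3 of 19 were called lower in Sox2Hi in naive tumours (median -0.55, beside 11.9% of all genes) and 3 of 19 in treated tumours (median -0.51, beside 5.87%). Under the all-gene scaling 0 of 20 were lower in naive (median -0.16) and 11 of 20 in treated tumours (median -0.93), beside 0.209% and 9.57% of genes. Ifit2 stood at -0.79 in naive (adjusted p = 0.0626) and -1.07 in treated tumours (adjusted p = 0.0345), and Rtp4 at -0.75 (adjusted p = 0.0769) and -1.02 (adjusted p = 0.0411). Of 19 gamma-type targets 17 rose in control and 18 in Sox2Hi tumours (medians 1.53 and 1.67), and 18 and 16 of 20 under the all-gene scaling, among them Cd274, which encodes PDL1, by 2.60 and 2.12, Gbp2 by 2.54 and 2.35, and the chemokine gene Cxcl10 by 2.48 and 2.89. Of the gamma-type targets 5 of 19 were called lower in Sox2Hi in naive and 2 of 19 in treated tumours, and 0 and 12 of 20 under the all-gene scaling. In the interaction edgeR called 0 of 19 in either target list, with medians of -0.27 for the ISRE type and -0.012 for the gamma type. Under the all-gene scaling the medians were -1.10 and -0.84, and 10 and 8 of 20 were called lower, beside 16.2% of genes. Of the 12 Stat3 targets 4 were higher and 4 lower in control tumours (24.1% and 33.1% over all genes). In Sox2Hi tumours 1 was higher and 2 lower (15.0% and 6.57% over all genes), with medians of 0.13 in control and 0.042 in Sox2Hi tumours. Under the all-gene scaling 7 were higher and 1 lower in control tumours (18.7% and 15.3% over all genes). In Sox2Hi tumours 0 were higher and 1 lower (1.79% and 1.82%), with medians of 0.68 in control and -0.23 in Sox2Hi tumours. The survival gene Bcl2l1 rose by 1.33 in control tumours and stood at -0.13 in Sox2Hi tumours, an interaction of -1.46 (adjusted p = 0.0334). Birc5 and Ccnd1, which act in cell division, fell by 1.39 and 1.30 on the log2 scale in control tumours and by 1.05 and 1.03 in Sox2Hi tumours.

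Across the 10 libraries the factors followed one another, with Pearson r of log2(CPM + 1) from 0.714 (Irf8 and Irf9) to 0.987 (Irf2 and Irf7) over the 36 pairs and a median of 0.91. These points share the treatment contrast and their libraries, so the values describe and do not test. Among genes outside the 9, those closest to Stat2 were Hist3h2a (r = 0.992), Bst2 (0.99) and Plac8 (0.989). Closest to Irf9 were Oasl2 (0.993), Rnf144a and Lyst (0.992 each), and to Batf2 they were H2-K1 (0.992), Daxx (0.989) and Gbp6 (0.987). Irf1 ran with Parp10 and Tap1 (0.984 each), Irf2 with AB124611, C3 (0.995 each) and Grb2 (0.992), and Irf7 with Zeb1 and Slc28a2 (0.987 each). Stat3 ran with Peli1 (0.981), Uckl1 (0.98) and Myd88 (0.979). Irf5 ran with Csf1r (0.978), the macrophage growth factor receptor, Pld4 (0.976) and Pik3r1 (0.968). Irf8 had the loosest companions, Nfkb2 (0.966), Cep85 (0.96) and Jmy (0.944).

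Per kb of exon Irf1 ranked first of the 9 factors in all 4 groups, and the order below it changed with treatment, Irf7 moving from rank 4 to 2 and Batf2 from rank 9 to 6. Exon length was the union of all annotated exons, which covers the whole gene for Irf7 (3776 bases) and a part of it for Irf1 (3976 bases). The order of different genes depends on these lengths, and other lengths were not tried. In control naive libraries the order ran from Irf1 at 17.8 ± 2.71 CPM per kb (SD, n = 3) over Irf9 at 12.4 ± 1.43 and Stat3 at 11.0 ± 1.50 down to Batf2 at 1.16 ± 0.26. Irf9 and Stat3 overlapped in their spread there. In control treated libraries it ran from Irf1 at 52.6 ± 22.3 (n = 2) and Irf7 at 34.4 ± 13.5 down to Irf8 at 2.57 ± 0.042, with Batf2 at rank 6 at 10.4 ± 4.76. In Sox2Hi treated libraries Irf1 stood at 45.1 ± 2.24 (n = 2), Irf7 at 23.6 ± 0.68, Batf2 at 6.25 ± 0.11 and Irf8 at 3.25 ± 1.15. Summed over the 9, naive libraries had 345 ± 54.3 CPM in control and 369 ± 63.8 CPM in Sox2Hi tumours, and treated libraries had 915 ± 282 and 752 ± 18.0 CPM.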

How the data were processed

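RNA was measured in 10 bulk libraries made with a low-input kit, per the labels' protocols. A gene-level table of estimated counts was deposited, read as such since the submitters' processing notes name kallisto 0.44.0 and the build mm10. The 4 values over 6 digits all end in 0, so the deposited counts may be rounded. How that tool was used, the annotation and whether counting used strand are not given in the sources used here. GENCODE M21 (GRCm38) gave symbols and coordinates for 55144 identifiers. The 96 entries that are no mouse genes were left out, at most 0.00277% of a library's counts.

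All 10 libraries entered 1 model with 4 groups in edgeR 4.0.16 (R 4.3.3), with TMM factors, the quasi-likelihood test and Benjamini-Hochberg adjustment over all genes tested. Genes averaging 5 CPM or more of library totals were kept, and the common biological coefficient of variation was 0.212. The scripts were tested on simulated data. Expected background was the median reads per kb over silent receptor genes times a gene's exon length. Log ratios used an offset of 0.5 counts. Replicates differed beyond sampling noise (smallest chi-square per degree of freedom 12.5). Deviations of naive libraries with the same title number correlated across genes (0.334, 0.333 and 0.422). Naive libraries of unlike number were not compared, so this check does not settle whether the numbers pair them, and the labels do not say. The 4 title-number pairs of control treated with naive libraries gave 0.204 to 0.277, those with Sox2Hi treated libraries -0.315 to 0.023, and pairs of a treated library by description number -0.315 to -0.039.

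The factors and lists were chosen with earlier results of these data known. All 9 factors are described. From each list at most 3 genes with the largest change in control tumours were named, among called genes averaging 10 CPM or more, and for each factor the 3 most correlated genes. Another gene is not reported here. Ifng and Ifnb1 were named after their values were seen, and Il6st, Pias2 and Irak2 because they were called in the interaction. Alternatives were other scalings, filters and tools (DESeq2 1.42.0, limma-voom in limma 3.58.1), replicate blocks, fits on the compared groups and each library left out.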

Additional observations from a re-analysis of the deposited data

Results flagged for a closer look

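Of the 96 genes tested from the lists around the factors, 5 (5.21%) differed between the grafts in their response to treatment under the expressed-gene scaling, where 19.8% of all genes did. The interaction is the Sox2Hi response minus the control response, tested in edgeR. It was -1.59 for Irf2bpl (SE 0.35, adjusted p = 0.00729), -1.46 for Bcl2l1 (SE 0.43, adjusted p = 0.0334), -0.98 for Pias2 (adjusted p = 0.0294) and -0.86 for Irak2 (SE 0.25, adjusted p = 0.0342). It was 1.00 for Il6st (SE 0.24, adjusted p = 0.0126), which went the opposite way. With the all-gene scaling Il6st stood at 0.18 (adjusted p = 0.615) and was not called, while Irf2bpl (-2.44), Bcl2l1 (-2.29), Pias2 (-1.80) and Irak2 (-1.68) were called lower, beside the shift of the median gene by -0.82. Irf2bpl went from 28.8 ± 7.84 (SD, n = 3) to 102 ± 24.6 CPM (n = 2) in control and from 23.0 ± 1.34 (n = 3) to 27.0 ± 6.98 CPM (n = 2) in Sox2Hi tumours. Bcl2l1 went from 15.0 ± 5.26 to 37.7 ± 13.7 CPM in control and from 33.0 ± 7.34 to 30.1 ± 1.87 CPM in Sox2Hi tumours. Il6st went from 16.1 ± 0.42 to 8.65 ± 1.46 CPM in control and from 14.2 ± 1.26 to 15.2 ± 0.44 CPM in Sox2Hi tumours. Of the 9 factors, 0 were called in the interaction in edgeR under the expressed-gene scaling, in DESeq2 or in limma-voom. At an unadjusted p under 0.05 the count was also 0 in edgeR under the expressed-gene scaling. Under the all-gene scaling 6 of 9 were called lower, where 16.2% of genes were.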

How the results depend on the processing

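The number of factors called moved by over 1.5 times in these cases. With library totals only, 5 were called for treatment in control and 5 in Sox2Hi tumours. With a filter at 20 CPM, which 5 factors passed, 5 and 4 were called. With all genes with a count, 3 were called for treatment in Sox2Hi tumours, 1 in naive, 5 in treated tumours and 7 in the interaction, and with the all-gene scaling 4, 1, 5 and 6. In naive tumours limma-voom called 1, and so did the naive libraries alone with the replicate block. In treated tumours DESeq2 called 1. Leaving out 1 library gave 1 to 8 for treatment in Sox2Hi tumours, 0 to 1 in treated tumours and 0 to 2 in the interaction. A group left with 1 library is then assumed to vary like the others. With the replicate block by title number, 9 and 7 factors were called for treatment, and Irf5 was lost in Sox2Hi tumours at 0.80 (adjusted p = 0.0705). Stat2 to Stat3 ran from 0.44 to 0.72 with 1 library left out, where fewer arrangements make the smallest p larger, and Irf7 to Irf5 from 0.42 to 0.87. The cause of the other changes was not tested. The share of all genes called was computed for the expressed-gene and all-gene scalings only. Counts under the other settings therefore cannot be set against all genes.

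Signs changed only for differences that were called in neither fit, as follows. Naive tumours: with the all-gene scaling Stat2 0.28, Irf1 0.21, Irf9 0.24, Batf2 0.33, with all genes with a count 0.38, 0.31, 0.34 and 0.42. With limma-voom Stat2 0.12, Irf1 0.086 and Batf2 0.27, with library totals Stat2 0.017 and Batf2 0.079, and with background subtracted Stat2 0.016 and Batf2 0.32. Batf2 was 0.056 with RLE factors and 0.056 with DESeq2. Treated tumours: Irf8 was -0.11 with the all-gene scaling and -0.22 with all genes with a count. Library totals gave Stat3 0.23, Irf1 0.11 and Irf5 0.29, the 20 CPM filter Stat3 0.049, the replicate block by description number Stat3 0.10 and Irf5 0.17, and the compared groups alone Irf5 0.0505. Interaction: Irf8 was -0.60 with the all-gene scaling, -0.81 with all genes with a count, -0.065 with limma-voom, -0.023 with background subtracted, -0.0175 with RLE factors and -0.019 with DESeq2. Irf1 was 0.16 with library totals, 0.076 with the 20 CPM filter, 0.0040 with background subtracted and 0.17 with the block by description number. Irf5 was 0.022 and Irf9 0.021 with library totals, and Irf5 0.0015 with that block. With 1 library left out, naive values ran from -0.33 to 0.074 for Stat2, -0.28 to 0.012 for Irf1, -0.065 to 0.48 for Irf2, -0.027 to 0.41 for Irf5, -0.12 to 0.36 for Irf7, -0.0030 to 0.31 for Irf8, -0.24 to 0.028 for Irf9 and -0.21 to 0.16 for Batf2. In treated tumours they ran from -0.49 to 0.14 for Stat3, -0.74 to 0.19 for Irf1, -0.59 to 0.36 for Irf5 and -0.19 to 0.66 for Irf8. In the interaction they ran from -0.67 to 0.26 for Irf1, -0.82 to 0.21 for Irf5 and -0.38 to 0.55 for Irf8.

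With 2 treated libraries per graft, a difference between grafts had a standard error of 0.21 to 0.31 for each factor on the log2 scale. No factor changed sign for treatment in either graft under any alternative run.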
